A study of Mus musculus with 8 samples.

Results

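The genes that bring fatty acids into a cell and hold them there were examined in the livers of female mice given dihydrotestosterone (DHT, a potent androgen) on a western diet (WD). Members were 10 named genes, each found by its Ensembl identifier among the 14317 mouse genes of the deposited expression table: the scavenger receptor Cd36, the transport proteins Slc27a1, Slc27a2 and Slc27a4, the binding proteins Fabp1, Fabp2, Fabp4 and Fabp5, the lipoprotein receptor Vldlr and the lipase Lpl. Whole liver RNA was sequenced from 4 control mice with empty pellets (Con-Veh) and 4 with a 10 mm silastic DHT pellet (Con-DHT), 1 library per mouse. All 8 mice were females kept on WD for 8.5 weeks. The labels give their genotype as WT, while the methods describe the controls as carrying a floxed allele that was left intact. Pellets were implanted at 7 weeks of age. In bulk liver, fewer cells of a type and less RNA per cell cannot be told apart.

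Long-chain fatty acids reach the liver bound to albumin or inside lipoprotein particles. CD36 and the SLC27 fatty acid transport proteins assist their passage into cells, the SLC27 proteins also join fatty acids to coenzyme A, and small cytosolic FABP proteins then carry them between membranes and enzymes. Lipoprotein lipase frees fatty acids from circulating triglyceride, and the VLDL receptor binds triglyceride-rich particles. In a healthy liver, FABP1 is the main binding protein of hepatocytes, whereas FABP4 and lipoprotein lipase are better known from adipose tissue, muscle and macrophages.

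Values are normalised read counts, in which the reads of a gene are divided by 1 scaling factor per library. A gene was called where limma, fitted to log2(value + 1) of the 14312 mouse genes whose mean reached 10, gave a Benjamini-Hochberg adjusted p of at most 0.05. Fold changes below are Con-DHT against Con-Veh on that log2 scale, with the standard error (SE) of the fit, unless another tool is named. No member was called by limma (0 of 10), beside 7.21% of all tested genes, and 4 members had an unadjusted limma p of at most 0.05, beside 23.2% of all tested genes. The edgeR test on the whole reads recovered from the values called 1 member, Fabp1, higher, beside 7.15% of all tested genes, 4.7% higher and 2.46% lower. DESeq2 called 2 members, beside 11.0% of all tested genes in either direction: Fabp1 higher, beside 6.45% of all tested genes, and Cd36 lower, beside 4.51%. Of the 10 fold changes, 5 were positive and 5 negative, with a median of 0.05, beside a median of -0.01 over all tested genes. Fabp1 was the only member whose 2 groups did not overlap, beside 15.1% of all tested genes.

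Promoter sequences of Cd36 and Fabp1, the members that a count test called, are shown from 250 bases before to 50 bases after the RefSeq start site, 5′ to 3′ on the strand of the gene (build GRCm38.p6). Capitals mark matches to AGGTCA, the half-site that many nuclear receptors bind, read here on the opposite strand as TGACCT, and in Fabp1 also TATAAA.
Cd36, chr5:17835847-17836146, minus strand: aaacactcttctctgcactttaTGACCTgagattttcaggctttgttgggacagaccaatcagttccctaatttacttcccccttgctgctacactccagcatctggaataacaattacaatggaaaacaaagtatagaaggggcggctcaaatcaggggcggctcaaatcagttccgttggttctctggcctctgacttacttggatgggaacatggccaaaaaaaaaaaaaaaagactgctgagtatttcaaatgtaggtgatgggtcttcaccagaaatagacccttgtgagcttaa
Fabp1, chr6:71199629-71199928, plus strand: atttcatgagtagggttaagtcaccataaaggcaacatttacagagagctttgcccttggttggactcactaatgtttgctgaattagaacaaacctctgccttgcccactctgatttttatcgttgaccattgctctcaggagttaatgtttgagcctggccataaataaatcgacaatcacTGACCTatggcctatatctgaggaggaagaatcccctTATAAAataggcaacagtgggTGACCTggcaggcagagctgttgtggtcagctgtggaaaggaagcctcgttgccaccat

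The Cd36 window held 1 such half-site, with its first base at -228 from the start site, and the Fabp1 window held 2, at -67 and -9, plus TATAAA at -30. The annotated Cd36 gene begins at 17888801 on the minus strand, upstream of its window, so start sites there were not covered. RefSeq windows were matched for 7 of the 10 members (10 windows), all but Fabp4, Fabp5 and Lpl. AGGTCA occurred on either strand in 3 of those 10 windows, the third being that of Slc27a2 at -220, and in 16.3% of all 32851 promoter windows. TATAAA occurred in 1 of the 10 and in 13.6% of all windows. The letters TTCNNNGAA (the palindrome type bound by STAT factors) and the direct repeat of AGGTCA spaced by 1 base were in none of the 10, and in 8.30% and 0.0396% of all windows. The direct repeat contains the half-site, and a match is a description of letters, not of binding.

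Cd36 encodes the scavenger receptor that takes up long-chain fatty acids and oxidised lipoproteins (ENSMUSG00000002944, chr5:17781690-17888801, minus strand, GRCm38). Its normalised read counts were 1994, 2392, 2761 and 2727 in Con-Veh 1 to 4, and 944, 2282, 1641 and 981 in Con-DHT 1 to 4. Con-DHT 1, 3 and 4 lay below every Con-Veh liver, whereas Con-DHT 2 lay above Con-Veh 1, so the groups overlapped. The mean was 2468 ± 357 in Con-Veh and 1462 ± 634 in Con-DHT (SD, n = 4), a difference in the mean of -40.8%. The fold change was -0.84 (SE 0.26, 95% interval -1.41 to -0.27), with an adjusted p of 0.078 from limma, 0.11 from edgeR and 0.032 from DESeq2. An exact two-sided permutation test over the 70 arrangements of the 8 livers gave p = 0.057, where the smallest possible is 0.029. Of the 8 fits that each left out 1 library, limma called Cd36 in 1, with adjusted p from 0.016 to 0.17 over the 8. That fit left out Con-DHT 2 and gave a fold change of -1.09 (adjusted p = 0.016, limma). Since Con-DHT 2 was the Con-DHT liver with the most Cd36, leaving it out had to enlarge the difference. The coefficient of variation of Cd36 in Con-DHT was 43.3% against 14.5% in Con-Veh, and counting reads alone would give 2.62%.

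**Figure D1:**
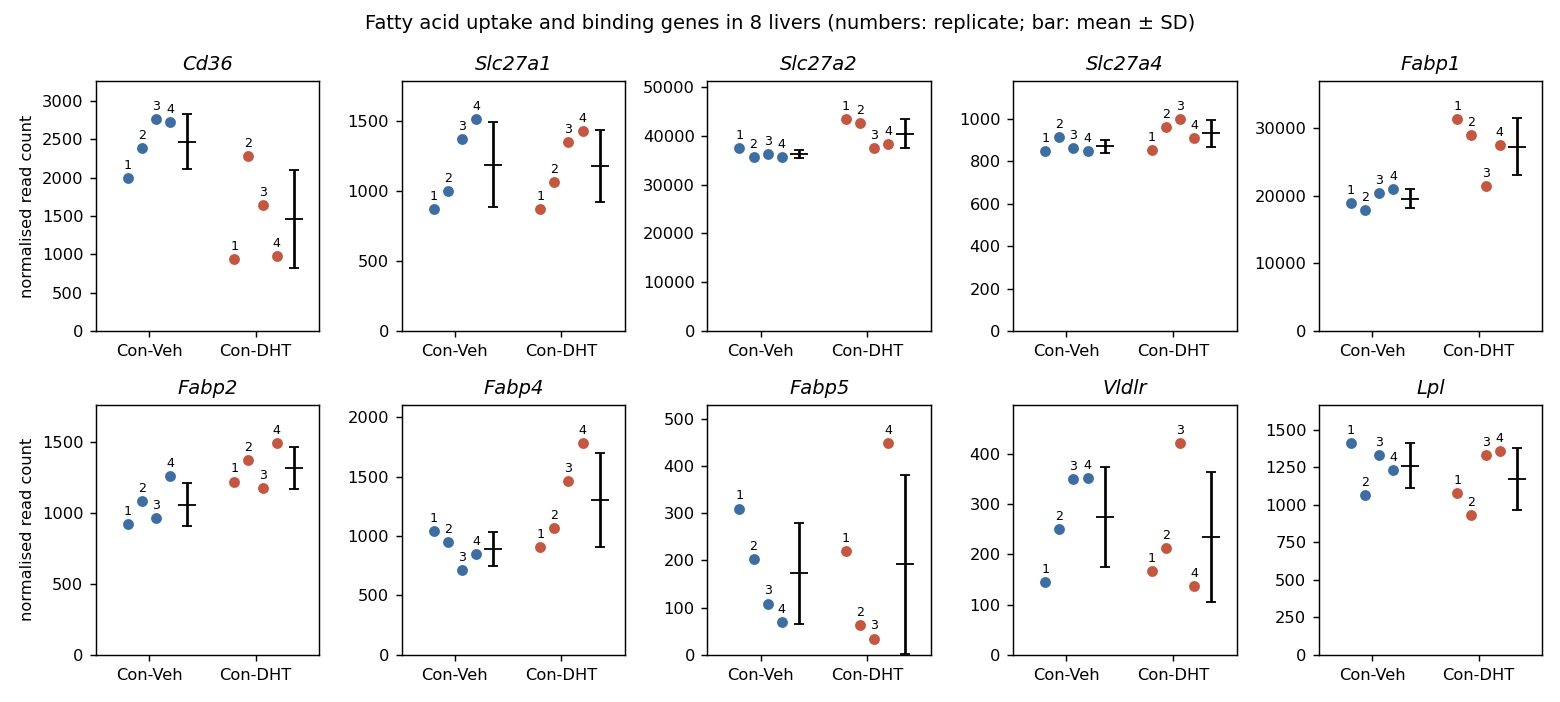
Normalised read count of each of the 10 members (vertical axes, each from 0) in the 4 Con-Veh (blue) and 4 Con-DHT (red) livers; small numbers give the replicate and the bars the mean ± SD. Only Fabp1 has no overlap between groups, Cd36 is lower in 3 of the 4 Con-DHT livers than in any Con-Veh liver, and Fabp5 spreads widely within both groups.

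Slc27a2 encodes FATP2, a hepatocyte transport protein that also activates very long-chain fatty acids (ENSMUSG00000027359, chr2:126552407-126588243, plus strand). Its normalised read counts were 37569, 35732, 36219 and 35550 in Con-Veh, and 43384, 42677, 37456 and 38219 in Con-DHT. Con-DHT 3 was the only Con-DHT liver below the highest Con-Veh liver, Con-Veh 1, and then by a narrow margin. The means of 36268 ± 912 and 40434 ± 3028 (SD, n = 4) differed by 11.5%, and the fold change of 0.15 (SE 0.11, 95% interval -0.09 to 0.40) was not called (adjusted p = 0.44, limma). Slc27a2 shares 419 exon bases with the lincRNA Gm26697 on the opposite strand. Gm26697 averaged 10.1 in Con-Veh and 13.5 in Con-DHT, and since no use of strand in counting is stated, reads of that stretch cannot be told apart.

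Slc27a1 (FATP1, best known from muscle and fat, ENSMUSG00000031808, chr8:71568882-71587302, plus strand) had nearly the same set of values in both groups. They ran from 869 to 1513 in Con-Veh and from 870 to 1432 in Con-DHT, with means of 1190 ± 304 and 1179 ± 258 (SD, n = 4). The 95% interval of the fold change ran from -0.45 to 0.44, so that changes of either sign within that range remain compatible with these values (adjusted p = 0.99, limma). A stretch of 167 bases of Slc27a1 is 95.2% identical to Slc3a2, so reads of that stretch are uncertain. Slc27a4 (FATP4, also an acyl-CoA synthetase, ENSMUSG00000059316, chr2:29802634-29817522, plus strand) had the narrowest range over the 8 livers, at 848.7 to 914.9 in Con-Veh and 853.5 to 997.1 in Con-DHT. Its fold change was 0.10 (SE 0.07, 95% interval -0.06 to 0.25, adjusted p = 0.46, limma).

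Per kb of annotated exon, Slc27a2 and the bile acid-CoA ligase Slc27a5 held nearly all of the Slc27 family's level. The share of Slc27a2 in the summed level of the 5 Slc27 genes in the table was 56.5% to 59.1% in Con-Veh and 59.7% to 65.2% in Con-DHT, without overlap. The share of Slc27a5 was 38.8% to 41.2% in Con-Veh and 31.8% to 37.5% in Con-DHT. Slc27a5 itself went from 16594 ± 393 to 14840 ± 2086 normalised reads (SD, n = 4) and was not called (fold change -0.17, adjusted p = 0.40, limma), nor was Slc27a2. Shares within a family move together by construction, and no test was run on them.

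Fabp1 encodes liver fatty acid-binding protein (ENSMUSG00000054422, chr6:71199827-71205023, plus strand). Its normalised read counts were 18895, 17921, 20340 and 20998 in Con-Veh, and 31248, 28852, 21337 and 27408 in Con-DHT. Every Con-DHT liver was above every Con-Veh liver, Con-DHT 3 by little and the other 3 clearly. The mean was 19539 ± 1391 in Con-Veh and 27211 ± 4224 in Con-DHT (SD, n = 4), or 39.3% higher. The fold change was 0.47 (SE 0.13, 95% interval 0.18 to 0.76), with an adjusted p of 0.060 from limma, 0.047 from edgeR and 0.0027 from DESeq2. The exact two-sided permutation p was 0.029, the smallest that this design allows. Of the 8 fits that each left out 1 library, limma called Fabp1 in 1, with adjusted p from 0.019 to 0.15 over the 8. That fit left out Con-DHT 3 and gave a fold change of 0.58 (adjusted p = 0.019, limma). Since Con-DHT 3 was the Con-DHT liver with the least Fabp1, leaving it out had to enlarge the difference.

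Fabp2, the intestinal-type binding protein (ENSMUSG00000023057, chr3:122895072-122899506, plus strand), had normalised read counts of 923, 1081, 966 and 1263 in Con-Veh, and 1221, 1373, 1178 and 1494 in Con-DHT. Con-Veh 4 lay among the Con-DHT livers, above Con-DHT 1 and Con-DHT 3, and the other Con-Veh livers were below all Con-DHT livers. The fold change was 0.32 (SE 0.11, 95% interval 0.07 to 0.57), with an adjusted p of 0.12 from limma, 0.13 from edgeR and 0.10 from DESeq2. The 5 defining markers of enterocytes (Vil1, Sis, Lct, Rbp2 and Alpi) had no row among the 14317 genes.

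Fabp4 encodes the adipocyte binding protein, also made by macrophages and endothelial cells (ENSMUSG00000062515, chr3:10204088-10208576, minus strand). Its normalised read counts were 1045, 949, 712 and 847 in Con-Veh, and 905, 1068, 1466 and 1784 in Con-DHT. Con-DHT 3 and Con-DHT 4 stood above all other livers, while Con-DHT 1 and Con-DHT 2 lay among or next to the Con-Veh values. The fold change was 0.52 (SE 0.20, 95% interval 0.07 to 0.96), with an adjusted p of 0.15 from limma, 0.13 from edgeR and 0.064 from DESeq2. The same libraries, Con-DHT 3 and 4, held the highest summed level of the 6 adipocyte markers, at 2291 and 2871, against 649 to 975 in Con-Veh and 851 and 797 in Con-DHT 1 and 2. Without these libraries, a setting chosen after seeing the data, the Fabp4 fold change was 0.16, and since they are the livers with the most Fabp4, leaving them out had to lower it.

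Of the 6 adipocyte markers (Adipoq, Lep, Plin1, Retn, Cfd and Adrb3), 0 were called by limma or edgeR and 1 by DESeq2, beside 11.0% of all tested genes. An unadjusted limma p of at most 0.05 was found for 1, beside 23.2%. All 6 fold changes were positive, and no marker was at 0 in any library. The summed level rests mostly on Cfd (complement factor D), which was 307 to 502 in 6 livers and 1713 and 2033 in Con-DHT 3 and 4. Adiponectin (Adipoq) was 228 and 289 in those libraries and 114 to 151 in the others, and resistin (Retn) 138 and 97.8 against 21.3 to 42.6. The other markers did not follow this in Con-DHT 3, where Adrb3 (145) lay inside the Con-Veh range of 106 to 162. Its leptin (Lep, 1.02) and perilipin 1 (Plin1, 67.4) were the lowest of the 8 livers. These margins were small: Con-DHT 3 had 1 read of Lep and 66 of Plin1, and Con-Veh 3 had 2 and 69. In Con-DHT 4 all 6 markers were above every Con-Veh liver. The part of adipocyte RNA in the Fabp4 values was not tested.

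Fabp5, the epidermal-type binding protein (ENSMUSG00000027533, chr3:10012548-10016607, plus strand), was the member with the widest range over the 8 livers. Its normalised read counts were 310, 204, 109 and 69.6 in Con-Veh, and 220, 62.9, 34.7 and 449 in Con-DHT. Both the lowest and the highest liver belonged to Con-DHT, and they differed 12.9-fold. The coefficient of variation was 62.0% in Con-Veh and 99.1% in Con-DHT, against 7.66% and 7.37% from counting. The fold change of -0.28 (SE 0.74, 95% interval -1.92 to 1.36, adjusted p = 0.86, limma) had the opposite sign to the difference in means, 173 ± 107 against 192 ± 190 (SD, n = 4). With edgeR and DESeq2 the fold change was 0.16 and 0.15. Fabp5 has 3 processed pseudogenes with at least 95% identity over 150 bases or more, the closest being Gm6166 (98.3% over 409 bases), and none of them has a row, so its counts are uncertain to the extent that reads could be split.

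Vldlr, the VLDL receptor (ENSMUSG00000024924, chr19:27216484-27254231, plus strand), had normalised read counts of 144, 251, 349 and 352 in Con-Veh, and 167, 213, 422 and 137 in Con-DHT. The groups overlapped across nearly their whole range. The fold change was -0.28 (SE 0.36, 95% interval -1.09 to 0.53, adjusted p = 0.70, limma). Lpl, which encodes lipoprotein lipase (ENSMUSG00000015568, chr8:68880491-68907448, plus strand), had 1413, 1064, 1332 and 1232 in Con-Veh, and 1076, 930, 1331 and 1357 in Con-DHT. Con-DHT 2 was below every Con-Veh liver, and the other 3 Con-DHT livers lay among them. The fold change was -0.11 (SE 0.13, 95% interval -0.41 to 0.18, adjusted p = 0.67, limma).

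**Figure D2:**
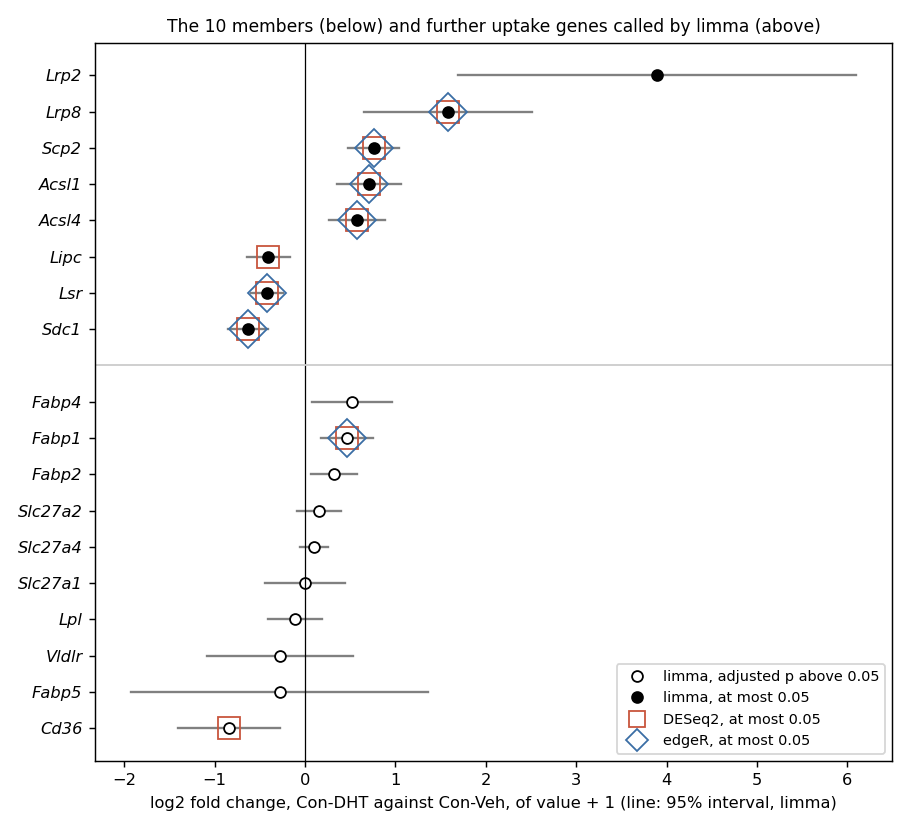
Log2 fold change of Con-DHT against Con-Veh (horizontal axis, limma on log2(value + 1), n = 4 a group) with its 95% interval for the 10 members (lower block) and 8 of the 9 further uptake genes that limma called (upper block); filled points, squares and diamonds mark an adjusted p of at most 0.05 with limma, DESeq2 and edgeR. No member is filled, Fabp1 has both open marks and Cd36 has only the square of DESeq2.

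Levels can be set beside each other only per length. Dividing by all annotated exon bases (GENCODE M21), the median Con-Veh level per kb was 35474 for Fabp1, 9583 for Slc27a2, 1061 for Fabp2 and 713 for Cd36. These 4 did not overlap each other in Con-Veh. Slc27a1 (204), Fabp4 (200) and Slc27a4 (194) followed and overlapped, then Lpl (122), Fabp5 (43.8) and Vldlr (29.8), of which the last pair overlapped. In Con-DHT the same 4 genes led, with Cd36 at 365 and Fabp4 next to it at 282. Annotated exons of some genes include bases that the main transcript lacks. For Fabp4 they cover every base from the start to the end of the gene, so its level per kb of all exons comes out lower. With the longest principal transcript instead (896 bases for Fabp4 against 4489 of all exons), Fabp4 had a median of 1002 in Con-Veh and came before Cd36 at 753, so the order below Slc27a2 depends on the length used. Per kb of all exons, the ratio of Cd36 to Fabp1 was 0.0163 to 0.0209 in Con-Veh and 0.00465 to 0.0122 in Con-DHT. The ratios did not overlap between the groups, and this pair was chosen after its values were seen.

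**Figure D3:**
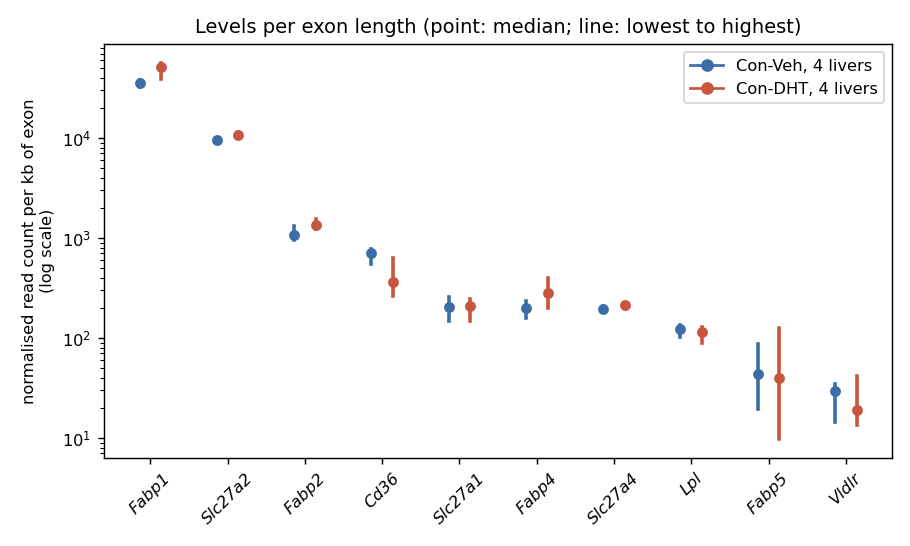
Normalised read count per kb of annotated exon (log vertical axis) for the 10 members, ordered by Con-Veh median; points are medians and lines run from the lowest to the highest of 4 livers, Con-Veh in blue and Con-DHT in red. Fabp1 and Slc27a2 stand above the rest, and the lines of Fabp5 and Vldlr are the longest.

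Genes whose profile over the 8 livers was most like that of Cd36 were found among 10609 tested genes with a mean of at least 50, as the smallest root-mean-square difference of centred log2 values. The nearest was Akr1d1, a bile acid and steroid 5β-reductase, at 0.14, and the median gene was at 0.60. Akr1d1 had 1851, 2334, 2395 and 2693 normalised reads in Con-Veh and 1039, 1959, 1604 and 1127 in Con-DHT, the same order of livers within Con-DHT as for Cd36. The next were Gm45640 (0.21), the cytolinker Ppl (0.22), the mitochondrial aldehyde dehydrogenase Aldh1b1 (0.22) and the interferon-inducible Ifi204 (0.23). The match was made over both groups, so that a lower level of these 5 genes in Con-DHT follows from the choice, and no test is given for them.

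Further genes of fatty acid uptake were counted in 4 lists, of which 51 of 56 genes had a row and were tested. Limma called 9 of the 51, 5 higher and 4 lower in Con-DHT, beside 4.6% and 2.61% of all tested genes, and the median fold change was 0.05. With edgeR 6 and with DESeq2 10 of the 51 were called, beside 7.15% and 11.0% of all tested genes. Of the other transport and binding genes, limma called 1 of 14, higher, beside 4.6% of all tested genes. Scp2, which encodes sterol carrier protein 2, a peroxisomal lipid-binding protein, rose from 33381 ± 2179 to 56719 ± 6388 (SD, n = 4), a fold change of 0.76 (SE 0.13, adjusted p = 0.0063, limma). All 4 Con-DHT livers were above all 4 Con-Veh livers, and its call remained whichever library was left out. The caveolin Cav1 had a fold change of 1.01 and was called by DESeq2 (adjusted p = 0.016) but not by limma (0.065) or edgeR (0.077).

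Acyl-CoA synthetases trap fatty acids in the cell by joining them to coenzyme A. All 9 tested had positive fold changes (median 0.24) and limma called 2 of them, beside 4.6% of all tested genes called higher. Acsl1, the main long-chain form of liver, rose from 18834 ± 3156 to 30749 ± 5490 (SD, n = 4), a fold change of 0.70 (SE 0.16, adjusted p = 0.026, limma), without overlap between groups. Acsl4, which prefers arachidonic acid, rose from 445 ± 71.3 to 664 ± 105, a fold change of 0.58 (SE 0.14, adjusted p = 0.034, limma). When each of the 8 libraries was left out in turn, limma still called Acsl1 in 3 of the 8 fits and Acsl4 in 2.

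Among 14 partners of lipoprotein lipase and related lipases, limma called 2, both lower, beside 2.61% of all tested genes. Of these 2, the hepatic lipase gene Lipc fell from 3244 ± 425 to 2439 ± 217 (SD, n = 4), a fold change of -0.41 (SE 0.11, adjusted p = 0.047, limma). Its adjusted p was just above the threshold with edgeR, 0.053, and of the 8 leave-one-out fits 1 still called it with limma. Lpl itself and the other 12 genes of this list were not called.

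Of 14 lipoprotein receptors and their partners, limma called 4, 2 higher and 2 lower, beside 4.6% and 2.61% of all tested genes. Sdc1, a heparan sulphate proteoglycan that clears triglyceride-rich remnants in liver, fell from 6093 ± 586 to 3935 ± 397 (SD, n = 4), a fold change of -0.63 (SE 0.10, adjusted p = 0.0046, limma). Lsr, the lipolysis-stimulated lipoprotein receptor, fell from 1827 ± 164 to 1359 ± 75.9, a fold change of -0.42 (SE 0.08, adjusted p = 0.011, limma). Both had no overlap between groups and were called whichever library was left out. Lrp8 rose at a low level, from 10.3 ± 5.15 to 29.5 ± 5.48 (fold change 1.58, SE 0.42, adjusted p = 0.049, limma). Lrp2 had no read in Con-Veh 2 and 4, had 22.0 in Con-Veh 1 against 12.8 in Con-DHT 1, and lost its limma call (adjusted p = 0.042) with edgeR (0.065) and DESeq2 (0.18). Limma called Lrp8 and Lrp2 in 2 each of the 8 fits that left out a library. Of the 9 further genes called, all but Lrp8 and Lrp2 lost their calls when libraries were scaled by spike-in RNA. That scaling moved the median fold change of all genes from -0.01 to 0.19, and 561 of its 636 calls were higher in Con-DHT, against 658 of 1032 here.

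None of the 14 regulators examined (nuclear receptors, STAT5 and coactivators that control these genes) was called by limma or edgeR. Of the 14, 4 had an unadjusted limma p of at most 0.05, beside 23.2% of all tested genes, and DESeq2 called 2, beside 11.0%. The regulator with the most reads, Hnf4a, the hepatocyte nuclear factor, had 15536 ± 1113 in Con-Veh and 13255 ± 1517 in Con-DHT (fold change -0.23, adjusted p = 0.22, limma). Ppara, a nuclear receptor for fatty acids, had 1570, 2365, 2409 and 2034 in Con-Veh and 2947, 3217, 2731 and 2532 in Con-DHT. Its groups did not overlap, but its fold change of 0.46 was not called by limma (adjusted p = 0.070), whereas DESeq2 gave 0.027. Ahr, a receptor known to induce Cd36, had a fold change of -0.47 (adjusted p = 0.070 with limma and 0.035 with DESeq2). Pparg, whose product also induces Cd36, had 244 ± 24.4 in Con-Veh and 307 ± 30.6 in Con-DHT (SD, n = 4), a fold change of 0.33 (adjusted p = 0.093 with limma and 0.073 with DESeq2). Ppara, Ahr and Pparg were singled out after their values were seen. Ppara and Pparg had the only 2 positive fold changes of the 14 regulators, the other 12 were negative, and the median was -0.12.

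Markers of the other liver cells were set beside the members. The 7 hepatocyte markers had a summed level of at least 806977 in every library. Limma called 1 of the 7, Serpina1c, higher, beside 4.6% of all tested genes. All 7 Kupffer cell markers had negative fold changes (median -0.57). Limma called 3 of the 7 lower, Cd5l, Vsig4 and Clec4f, beside 2.61% of all tested genes, with Cd5l falling by 0.86 on the log2 scale. The summed level of the 7 was 6317 to 7843 in Con-Veh and 5904, 4290, 4823 and 4395 in Con-DHT 1 to 4. Cd36, which macrophages and endothelial cells also express, was lowest in Con-DHT 1, the Con-DHT liver with the highest Kupffer cell sum, and highest in Con-DHT 2, the one with the lowest. Of the 7 endothelial markers limma called 2, Stab2 and Lyve1, both lower, beside 2.61% of all tested genes. Of their 7 fold changes 5 were negative and 2, those of Ehd3 (0.15) and Kdr (0.00026), were positive. The summed level of the 7 was 3994 to 4554 in Con-Veh and 3243, 3710, 3414 and 3329 in Con-DHT 1 to 4. Within Con-DHT, the livers had the same order for this endothelial sum as for Cd36. Within Con-Veh the 2 orders differed, with endothelial sums of 3994, 4202, 4064 and 4554 in Con-Veh 1 to 4. For lipid-associated macrophages, limma called Lgals3 lower among 6 markers, beside 2.61% of all tested genes. The sums overlapped, at 1240 to 1366 in Con-Veh and 1095 to 1543 in Con-DHT. None of the 7 stellate cell markers (highest Dcn, summed level 1334 to 3541 in Con-Veh and 2065 to 2406 in Con-DHT) or of the 5 cholangiocyte markers (highest Spp1) was called. No marker with a row was at 0 reads in any library. The part of these cell types in the values of Cd36 and the other members was not tested.

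**Figure D4:**
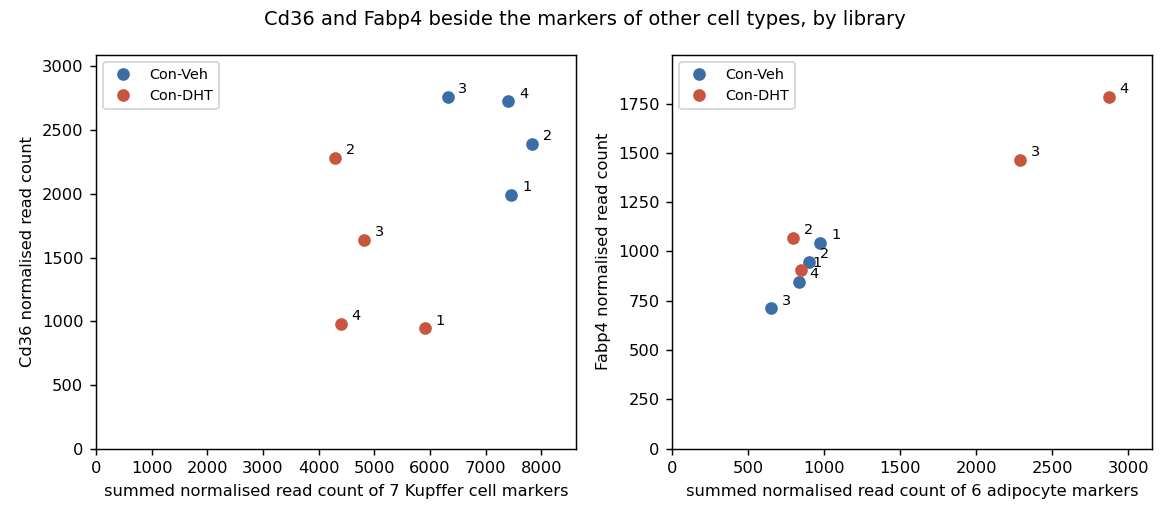
Left, Cd36 against the summed level of 7 Kupffer cell markers; right, Fabp4 against the summed level of 6 adipocyte markers (all axes in normalised read counts, from 0), with 1 point per liver, Con-Veh in blue and Con-DHT in red, numbered by replicate. Con-DHT 3 and 4 stand apart on the right with 2291 and 2871, and on the left the 4 Con-DHT livers lie at lower marker sums than all Con-Veh livers and, among them, Cd36 is highest at the lowest sum and lowest at the highest sum.

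Libraries held 13123962 to 17815944 reads of mouse genes, and even Fabp5, the member with the fewest reads in a library, had at least 34 reads in each. No pair of libraries within a group agreed within sampling noise (chi-square per degree of freedom of 19.1 or more). Nothing in the labels gives litters, cages or batches, and p-values measure the spread between these mice alone.

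**Figure D5:**
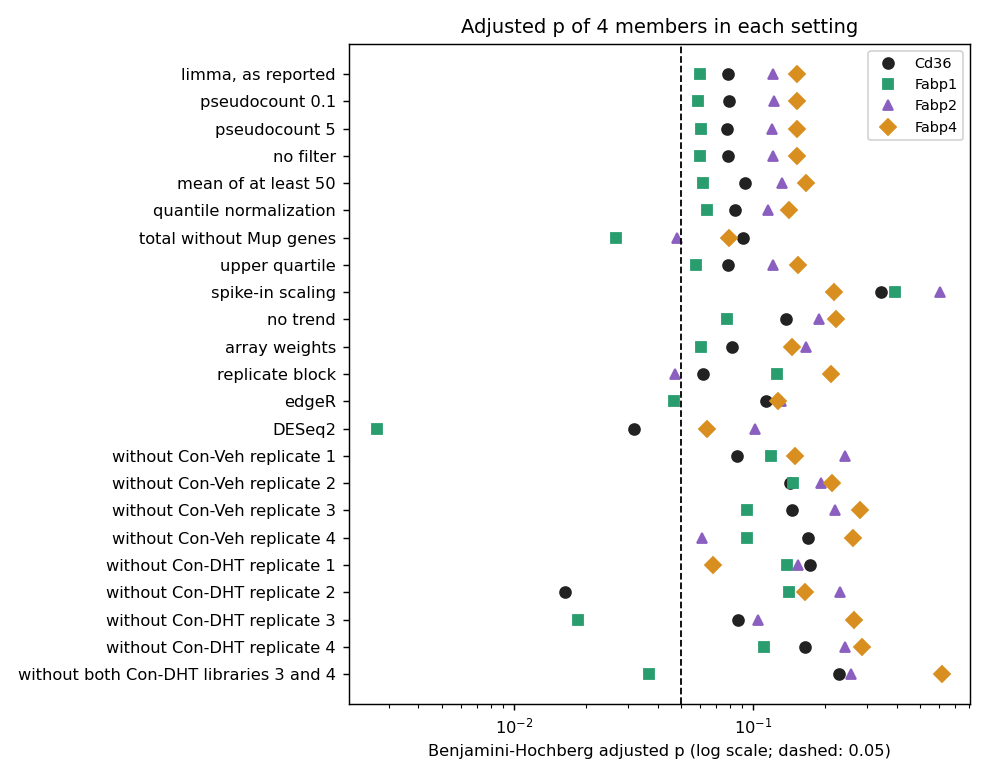
Benjamini-Hochberg adjusted p (log horizontal axis, dashed line at 0.05) of Cd36, Fabp1, Fabp2 and Fabp4 in the comparison as reported and under each of 22 other settings. Fabp1 lies left of the line in 5 of them, Cd36 and Fabp2 in 2 each, and Fabp4 in none.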

How the data were processed

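Bulk RNA from 8 livers, 4 per group, was analysed, with groups and replicate numbers taken from the labels. According to the methods and the submitters' processing notes, the authors added ERCC spike-in RNA, prepared NEBNext libraries, trimmed reads with Trimmomatic, aligned them with STAR (build GRCm39), and counted uniquely mapped exon reads with featureCounts. Strand settings are not given in the sources used here. The deposited values are a normalised signal, in which each library's reads were scaled by a DESeq2-type size factor. The table holds 14317 mouse genes and 54 spike-ins, with at least 81 reads per gene over the 8 libraries, so weakly expressed genes had been left out.

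Values were tested as log2(value + 1) with limma 3.58.1 (intensity trend, R 4.3.3) for 14312 genes with a mean of at least 10, with Benjamini-Hochberg adjustment at 0.05. The pseudocount understates changes of low genes. Dividing by each library's smallest step gave whole reads for 100% of values (tolerance 0.01), and edgeR 4.0.16 (quasi-likelihood, TMM) and DESeq2 1.42.0 (Wald) were run on these as alternatives, calling 1024 and 1569 genes against 1032 with limma. The fit was tested on simulated data. Symbols were found for 14287 genes. Positions and exon lengths are from GENCODE M21 (GRCm38), near-identical copies from blastn 2.17.0, and promoters from RefSeq.

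The members and lists were chosen with earlier results of these data known. Named were all members, each listed gene that limma called (1 is not reported here), the gene with the highest level in a list without calls, and the 5 genes nearest to Cd36. Slc27a5, Cav1, Adipoq, Retn, Lep, Plin1, Adrb3, Ppara, Pparg and Ahr were given values beside this rule. Sensitivity settings changed the pseudocount, filter, scaling, variance model, pairing, tool or libraries.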

Additional observations from a re-analysis of the deposited data

How the results depend on the processing

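Over 22 other settings, 197 of 220 fits of single members kept the direction and the side of the threshold, and 7 members kept their direction in all 22. The number of members called (0 with limma) was 1 with edgeR (Fabp1), 2 with DESeq2 (Cd36 and Fabp1), 2 when scaled to the total without Mup genes (Fabp1 and Fabp2), 1 with the replicate block (Fabp2), 0 to 1 when 1 library was left out, and 1 without Con-DHT 3 and 4 (Fabp1, a setting chosen after seeing the data). The number of further uptake genes called, 9 with limma, was 5 with a mean of at least 50, 3 with spike-in scaling, 4 without the variance trend, and 3 to 9 when 1 library was left out. All genes called, 1032, became 648 with a mean of at least 50 (fewer genes were tested), 636 with spike-in scaling, 1569 with DESeq2, 638 to 897 when 1 library was left out and 474 without Con-DHT 3 and 4. The fold change of Slc27a1 (-0.0042) turned positive with quantile normalization (0.0016), the total without Mup genes (0.094), the upper quartile (0.00026) and spike-in scaling (0.19), and ran from -0.14 to 0.13 when 1 library was left out. That of Lpl turned with spike-in scaling (0.087), and that of Fabp5 with edgeR (0.16) and DESeq2 (0.15), running from -0.91 to 0.31 when 1 library was left out. Cd36 ran from -1.09 to -0.64 and Fabp1 from 0.40 to 0.67 over the planned settings. Scaling to the total without Mup genes, where Fabp1 and Fabp2 were called, called 1290 genes in all, 1082 of them higher in Con-DHT. That scaling moved the median fold change of all genes from -0.01 to 0.09. The cause of these shifts was not tested.

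Same-numbered mice of the 2 groups did not deviate together (correlations of -0.186, -0.006, -0.022 and -0.076). These values cannot show whether equal numbers share a litter, cage or batch, which the labels do not give. With the replicate block 700 genes and 1 member were called.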
